A study of Mus musculus with 8 samples.

Results

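Genes of myelin and of the oligodendrocyte lineage, 9 in all, were examined in the brains of mice lacking SIRT1 there: Mbp, Mog, Mag, Mobp, Cnp, Mal, Olig1, Sox10 and Pdgfra. They were chosen by name, and every probe set annotated to 1 of them as its single gene symbol was taken. This gave 24 of the 22626 tested probe sets and 9 of 12393 genes, with 8 probe sets for Mbp, 3 each for Mobp, Cnp and Sox10, 2 each for Mal and Pdgfra and 1 each for Mog, Mag and Olig1. The study compared male mice of strain C57/B6 at 3 months of age, a brain-specific SIRT1 knockout (BSKO) with littermates that were wild type (WT). The 4 mice of each genotype were biological replicates, and total RNA of the whole brain went onto 1 single-channel Affymetrix array per replicate. SIRT1 is an NAD-dependent protein deacetylase. Not given in these sources are the driver of the deletion, the part of the gene deleted and whether oligodendrocytes are among the targeted cells.

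Oligodendrocytes wrap axons of the central nervous system in myelin, a compacted membrane rich in cholesterol, galactolipids and a small set of abundant proteins. They arise from precursor cells that carry the platelet-derived growth factor receptor PDGFRA, under the control of transcription factors of the OLIG and SOX families. In whole-brain RNA the transcripts of myelin proteins come from mature oligodendrocytes, so fewer such cells and less RNA per cell cannot be told apart.

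The values are log2 values centred on each probe set's own median over the 8 arrays, so 0 is that median, 1 unit is a doubling and no level of expression can be read from them. For the same reason they cannot show whether a marker is detected in this tissue. The number of arrays limits the precision. BSKO 2 stood apart from the other 7 arrays: its SD over all probe sets was 0.831 against 0.150 to 0.314, and the 5′ minus 3′ value of beta-actin was -2.44 against -0.10 to 0.49 elsewhere. The Gapdh pair differed by -2.43 on BSKO 2 and by -0.075 to 0.095 on the others. Results are therefore stated over 8 arrays and, in a second fit, without BSKO 2. What part RNA quality has in the values of that array was not tested.

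Upstream sequences are shown for 4 myelin genes because SOX10, 1 of the 9, is a known activator of myelin genes and SOX proteins bind short elements such as ACAAAG. RefSeq promoters of build GRCm38.p6 were found for 6 of the 9 genes, with 8 transcription starts in all (3 for Mag), matched by symbol. The 250 bases before each start were searched on both strands for ACAAAG and, as a second motif, for ACAATG. On the opposite strand the first reads CTTTGT and the second, in turn, CATTGT. No position counts for both motifs, which were chosen with the sequences in view. Each is written 5′ to 3′ on the strand of the gene, with matches in capitals. Mobp lies on the plus strand at chr9:120149492-120149741 and Cnp on the plus strand at chr11:100574689-100574938. The first Mag start lies on the minus strand at chr7:30914864-30915113 and Mog on the minus strand at chr17:37023399-37023648.
Mobp: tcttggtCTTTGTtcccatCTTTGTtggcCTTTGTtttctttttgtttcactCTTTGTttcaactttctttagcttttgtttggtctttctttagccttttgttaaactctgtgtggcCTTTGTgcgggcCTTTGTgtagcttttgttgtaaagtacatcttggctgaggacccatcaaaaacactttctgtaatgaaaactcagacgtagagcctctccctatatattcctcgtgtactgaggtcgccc
Cnp: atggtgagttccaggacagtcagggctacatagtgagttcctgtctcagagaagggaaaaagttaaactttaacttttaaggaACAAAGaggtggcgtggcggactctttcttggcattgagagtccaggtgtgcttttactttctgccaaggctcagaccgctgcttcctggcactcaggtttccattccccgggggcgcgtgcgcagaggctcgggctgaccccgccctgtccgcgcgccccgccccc
Mag: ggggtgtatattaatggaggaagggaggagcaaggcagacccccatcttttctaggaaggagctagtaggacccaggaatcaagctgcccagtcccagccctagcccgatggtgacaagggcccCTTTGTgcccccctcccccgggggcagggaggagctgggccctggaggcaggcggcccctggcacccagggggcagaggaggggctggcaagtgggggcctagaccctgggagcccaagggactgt
Mog: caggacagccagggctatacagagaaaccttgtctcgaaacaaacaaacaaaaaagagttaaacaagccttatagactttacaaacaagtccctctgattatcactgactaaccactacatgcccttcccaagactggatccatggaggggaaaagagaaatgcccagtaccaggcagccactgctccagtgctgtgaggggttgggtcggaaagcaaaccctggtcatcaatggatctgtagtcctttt
The Mobp window held 6 matches to ACAAAG, every one as CTTTGT on the strand shown, and it was the 1 window with that many among 32851. Cnp held 1 match, as ACAAAG itself, and 2 of the 3 Mag windows, which overlap, held the same 1. Mog, Mal, Pdgfra and the remaining Mag window held none. Of all 32851 windows, 16.5% held ACAAAG at least once and 10.7% held ACAATG, which none of the 8 windows had. A match describes the letters and does not show that a protein binds there.

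None of the 9 genes passed an adjusted p of 0.05 (limma) for a difference between the genotypes, with or without BSKO 2. With 8 arrays, 0 of the 24 probe sets passed an adjusted p of 0.05 (limma with Benjamini-Hochberg adjustment over all probe sets), where 0.0309% of all probe sets passed. The adjusted p values ran from 0.447 to 0.995. At an unadjusted p under 0.05 there was 1 of 24, a Mal probe set, against 10.8% of all probe sets. Without BSKO 2, again 0 of 24 passed, where 1.63% of all did, and 1 probe set, of Pdgfra, had an unadjusted p under 0.05 against 19.8% of all. With probe sets averaged by gene, 0 of 9 genes passed with 8 arrays (0.0726% of all genes) and 0 of 9 without BSKO 2 (2.15% of all genes). None of the 9 had an unadjusted p under 0.05 in either fit, where 12.2% and 21.2% of all genes did.

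With 8 arrays 17 of the 24 probe sets had a lower mean in BSKO, where 46.5% of all probe sets did, and the median difference was -0.057. Without BSKO 2 the count was 12 of 24 (47.8% of all) with a median of 0.0029, and 9 of the 24 differences had changed sign. Among probe sets the excess on the lower side was thus absent without that array. For gene means the median difference hardly moved, although single genes did, such as Olig1 (0.14 to -0.29) and Mobp (-0.34 to -0.042). Of the 9 gene means, 6 were lower in BSKO when BSKO 2 was kept and 5 after its removal, and 3 changed sign. The medians of these gene differences were -0.040 and -0.042. The genotypes did not overlap for 1 of the 24, or 4.17%, against 12.3% of all probe sets, and for 2 of the 24 without BSKO 2, or 8.33%, against 19.5%. No gene mean separated the genotypes in either fit, where 13.2% and 20.5% of all genes did.

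**Figure D1:**
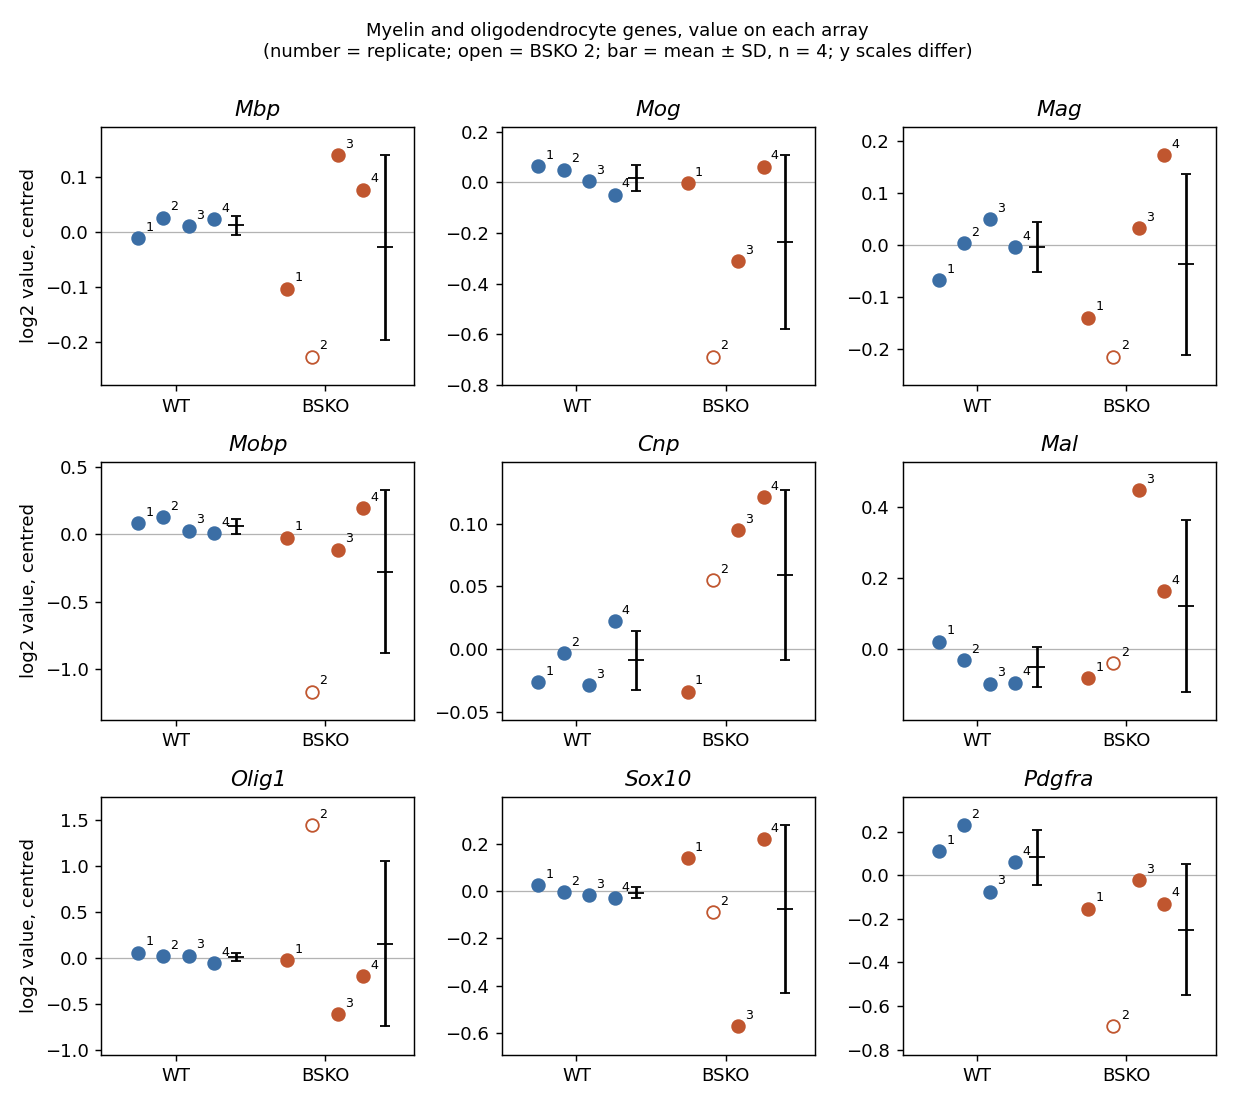
Centred log2 value of each gene (mean of its probe sets, vertical axes of different scale) on 4 WT and 4 BSKO arrays, with the replicate number beside each point, BSKO 2 as an open point, and the mean ± SD (n = 4) to the right of each group. The SD is smaller in WT than in BSKO in every panel, while BSKO 2 is far below the rest for Mobp (-1.17) and far above for Olig1 (1.45).

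Of the 9 gene means, that of Mbp had the smallest SD in WT. Mbp encodes myelin basic protein, which holds the cytoplasmic faces of the myelin membrane together. As the mean of its 8 probe sets it read -0.011, 0.026, 0.011 and 0.024 on WT 1 to 4, and -0.10, -0.23, 0.14 and 0.077 on BSKO 1 to 4. BSKO 1 and 2 lay below every WT array and BSKO 3 and 4 above, so the genotypes overlapped. WT had a mean of 0.012 ± 0.017 (SD, n = 4) and BSKO one of -0.028 ± 0.17. They differed by -0.040 (SE 0.10, 95% interval -0.27 to 0.19, adjusted p = 0.856). Without BSKO 2 it was 0.026 (interval -0.14 to 0.19, adjusted p = 0.874).

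The 8 Mbp probe sets, which share 1 gene as their target and are no replicates of each other, did not run in parallel. Probe set 1425263_a_at had the widest WT values, 0.31, 0.44, 0.023 and -0.28 on WT 1 to 4, and read -0.44, -0.023, 0.65 and -0.13 on BSKO 1 to 4. Probe set 1425264_s_at was the 1 among all 24 that separated the genotypes with 8 arrays, with -0.073 to -0.0012 in WT and 0.0012 to 0.27 in BSKO. Its difference of 0.14 had an interval that included 0 (-0.081 to 0.36, SE 0.096, adjusted p = 0.578). The other 7 Mbp differences lay between -0.11 and -0.0015 with 8 arrays, and between -0.096 and 0.068 without BSKO 2.

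Mobp, which encodes another small basic protein of compact myelin, had the lowest gene mean of the 9 on BSKO 2. It read 0.083, 0.13, 0.028 and 0.0077 on WT 1 to 4 and -0.023, -1.17, -0.11 and 0.20 on BSKO 1 to 4. BSKO 2 was far below every other array, BSKO 4 above every WT array. The difference was -0.34 (SE 0.26, interval -0.94 to 0.26, adjusted p = 0.576), and -0.042 without BSKO 2 (interval -0.24 to 0.15, adjusted p = 0.813). On BSKO 2 its 3 probe sets read -2.69 (1450088_a_at), -0.73 (1421010_at) and -0.080 (1433785_at), a range of 2.61, while on the other 7 arrays the same 3 spanned 0.0225 to 0.167. The low Mobp mean of this array thus came mainly from 1 probe set.

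Mog and Mag encode adhesion proteins of the immunoglobulin family, the first on the outer face of the sheath and the second on the face next to the axon. Mog read 0.064, 0.050, 0.0032 and -0.049 on WT 1 to 4 and -0.0032, -0.69, -0.31 and 0.061 on BSKO 1 to 4. BSKO 2 and BSKO 3 lay below every WT array, and the other 2 BSKO arrays among them. The difference was -0.25 (SE 0.16, interval -0.62 to 0.12, adjusted p = 0.521) and -0.10 without BSKO 2 (adjusted p = 0.579). Mag read -0.068, 0.0044, 0.049 and -0.0044 on WT 1 to 4 and -0.14, -0.22, 0.033 and 0.17 on BSKO 1 to 4. BSKO 1 and BSKO 2 lay below every WT array, BSKO 3 among them and BSKO 4 above. The Mag difference was -0.033 (SE 0.11, interval -0.27 to 0.21, adjusted p = 0.887), and 0.027 without BSKO 2 (interval -0.16 to 0.22).

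Cnp encodes a cyclic nucleotide phosphodiesterase of the uncompacted channels of the sheath, and it was the gene with the smallest spread in BSKO. It read -0.026, -0.0031, -0.029 and 0.022 on WT 1 to 4 and -0.034, 0.055, 0.095 and 0.12 on BSKO 1 to 4. The last 3 BSKO arrays were above every WT array and BSKO 1 was below them. The means were -0.0090 ± 0.024 (SD, n = 4) and 0.059 ± 0.068, a difference of 0.068 (SE 0.081, interval -0.12 to 0.25, adjusted p = 0.691), nearly the same without BSKO 2 (0.070, adjusted p = 0.554). This evenness hid opposite probe sets on BSKO 2, where 1449296_a_at read 0.59 and 1418980_a_at and 1437341_x_at read -0.20 and -0.23.

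Mal encodes a proteolipid of membrane rafts that takes part in sorting proteins to the myelin membrane. Its gene mean read 0.021, -0.031, -0.098 and -0.095 on WT 1 to 4 and -0.082, -0.040, 0.45 and 0.16 on BSKO 1 to 4. BSKO 3 and BSKO 4 were above every WT array and BSKO 1 and 2 among them. The difference was 0.17 (SE 0.13, interval -0.12 to 0.46, adjusted p = 0.561), and 0.23 without BSKO 2 (interval -0.045 to 0.50, adjusted p = 0.306). Probe set 1432558_a_at read 0.024, -0.024, -0.15 and -0.23 on WT 1 to 4 and -0.15, 0.73, 0.81 and 0.25 on BSKO 1 to 4. Its difference of 0.50, or 1.42-fold higher, had the lowest p of the 24 with 8 arrays (SE 0.21, unadjusted p = 0.0410, adjusted p = 0.447), and it was 0.40 without BSKO 2 (adjusted p = 0.313). The second Mal probe set, 1417275_at, read -0.81 on BSKO 2, opposite to the first, and 0.075 to 0.084 on BSKO 3 and BSKO 4.

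**Figure D2:**
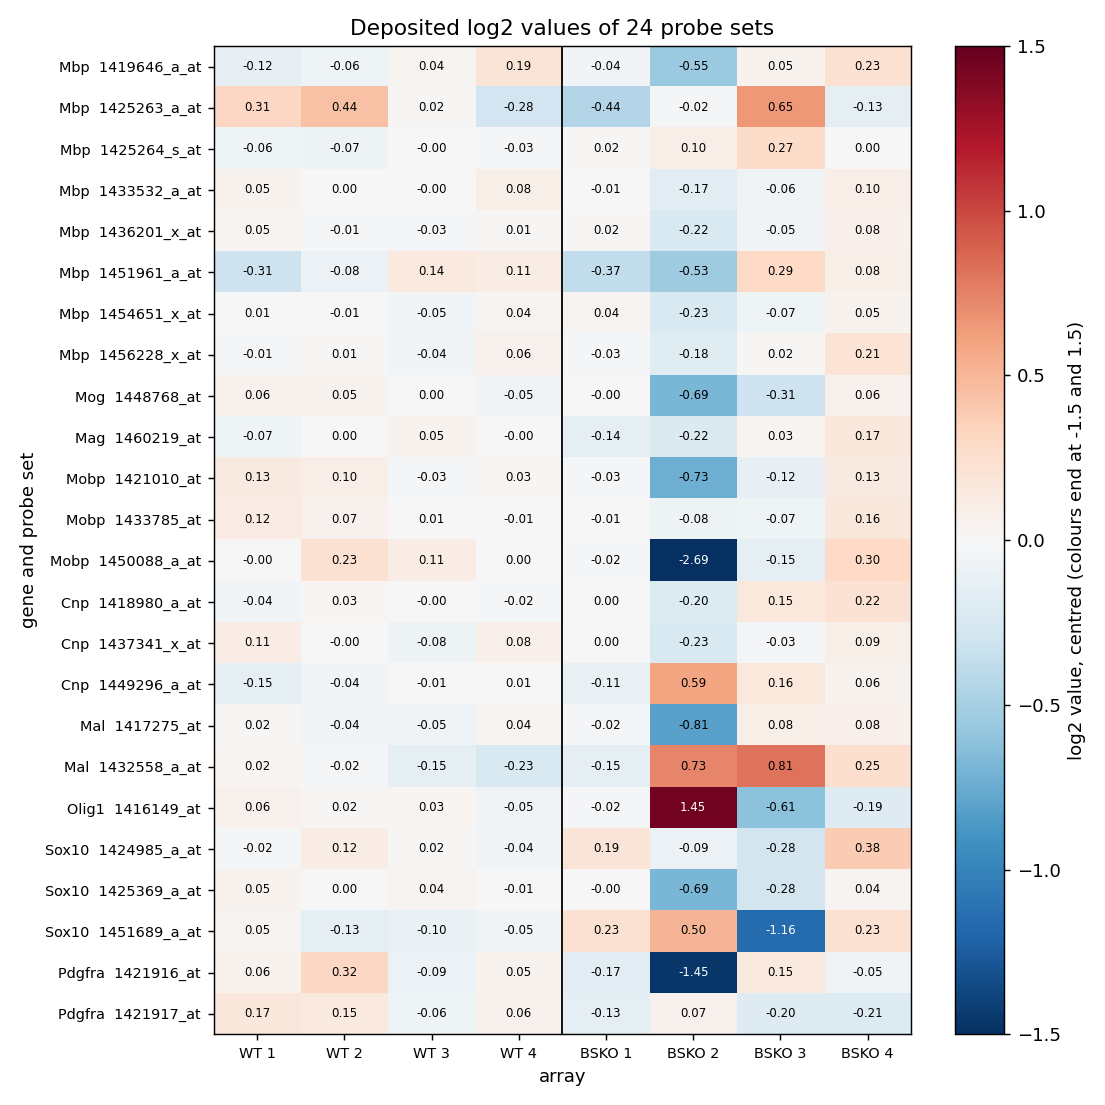
Deposited centred log2 values of the 24 probe sets (rows, by gene) on 8 arrays (columns, WT left of the line), with the value in each cell and colours ending at -1.5 and 1.5. The BSKO 2 column holds the strongest colours of both signs, from -2.69 (Mobp 1450088_a_at) to 1.45 (Olig1), and BSKO 3 is blue for Mog, Olig1 and the 3 Sox10 probe sets.

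Among the transcription factors, Olig1 and Sox10 were both at their lowest on BSKO 3. Olig1 is a basic helix-loop-helix factor of the oligodendrocyte lineage. It read 0.062, 0.020, 0.029 and -0.050 on WT 1 to 4 and -0.020, 1.45, -0.61 and -0.19 on BSKO 1 to 4. BSKO 2 was the highest of all arrays, while BSKO 3 and BSKO 4 lay below every WT array. The difference was 0.14 with 8 arrays (SE 0.38, interval -0.73 to 1.01, adjusted p = 0.863) and -0.29 without BSKO 2 (SE 0.13, interval -0.59 to 0.011, adjusted p = 0.248). Sox10, an HMG-box factor required for oligodendrocyte maturation, read 0.026, -0.0046, -0.017 and -0.031 on WT 1 to 4 and 0.14, -0.089, -0.57 and 0.22 on BSKO 1 to 4. BSKO 1 and BSKO 4 were above every WT array and BSKO 2 and BSKO 3 below. Its difference was -0.069 (SE 0.17, interval -0.45 to 0.31, adjusted p = 0.848) and -0.065 without BSKO 2 (adjusted p = 0.870). On BSKO 3 the 3 Sox10 probe sets read -0.28, -0.28 and -1.16, all below every WT array.

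Pdgfra, the receptor gene of the precursor cells, had the lowest p of the 9 gene means with 8 arrays (limma unadjusted p = 0.0628), and without BSKO 2 it came after Olig1 (0.0597 against 0.0572). Its gene mean read 0.11, 0.23, -0.075 and 0.059 on WT 1 to 4 and -0.15, -0.69, -0.023 and -0.13 on BSKO 1 to 4. BSKO 1, 2 and 4 lay below every WT array, and BSKO 3 lay above WT 3. WT had a mean of 0.082 ± 0.13 (SD, n = 4) and BSKO one of -0.25 ± 0.30. They differed by -0.33, or 1.26-fold lower (SE 0.16, interval -0.69 to 0.022, adjusted p = 0.431). Without BSKO 2 it was -0.18 (SE 0.084, interval -0.38 to 0.0096, adjusted p = 0.254). Between replicates 1 and 2 of each genotype it was -0.59, between replicates 3 and 4 it was -0.069, and BSKO 1 alone lay -0.32 from the mean of WT 1 and WT 2.

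Its probe sets behaved differently on BSKO 2. Probe set 1421917_at read 0.17, 0.15, -0.064 and 0.064 on WT 1 to 4 and -0.13, 0.067, -0.20 and -0.21 on BSKO 1 to 4. Without BSKO 2 the genotypes did not overlap on it, and its difference was -0.26 (SE 0.077, interval -0.44 to -0.081). In this fit BSKO 1 lay -0.29 from the mean of WT 1 and WT 2, and BSKO 3 and 4 lay -0.20 from WT 3 and 4. The p was the lowest of the 24 in this fit, and after adjustment it did not pass (limma unadjusted p = 0.00992, adjusted p = 0.131). With array weights it passed (adjusted p = 0.0381 with 8 arrays and 0.0378 without BSKO 2), as 1 of the 24, in fits that called 11.6% and 13.3% of all probe sets. Over the other alternatives the adjusted p lay between 0.107 and 1.00. Probe set 1421916_at read -1.45 on BSKO 2, and its difference was -0.47 with 8 arrays and -0.11 without BSKO 2 (adjusted p = 0.577 and 0.638).

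Fibroblasts of the meninges also carry PDGFRA, and their markers had lower means in BSKO. With 8 arrays 0 of 10 passed, where 0.0726% of all genes did. At an unadjusted p under 0.05 (limma) there were 8 of 10, against 12.2% of all genes. All 10 listed meningeal and fibroblast genes had lower means in BSKO, with a median difference of -0.99 (all genes: 0.030). The genotypes did not overlap for 8 of 10, against 13.2% of all genes. The array medians of this list were 0.65, 0.63, 0.10 and 0.15 on WT 1 to 4 and -0.55 to -0.26 in BSKO, so that WT 1 and 2 stood above WT 3 and 4. Ogn and Lum, matrix proteoglycan genes, differed by -1.54 and -0.91 (adjusted p = 0.0747 and 0.0970). Without BSKO 2 Ogn, Lum and Aldh1a2, the last named after its values were seen, were called as lower (adjusted p = 0.0300, 0.0455 and 0.0321), where 1.39% of all genes were, and the list median was -0.77. The pericyte list, of 7 genes, had a median difference of -0.051 with 8 arrays and 0.034 without BSKO 2. With 8 arrays its smallest p values were those of Pdgfrb (difference 0.48) and Rgs5 (difference -0.23). Pdgfrb read 1.57 on BSKO 2 and 0.016, 0.11 and 0.073 on BSKO 1, 3 and 4, and Rgs5 read -0.76 on BSKO 2. The part of these cells in the Pdgfra values was not tested.

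**Figure D3:**
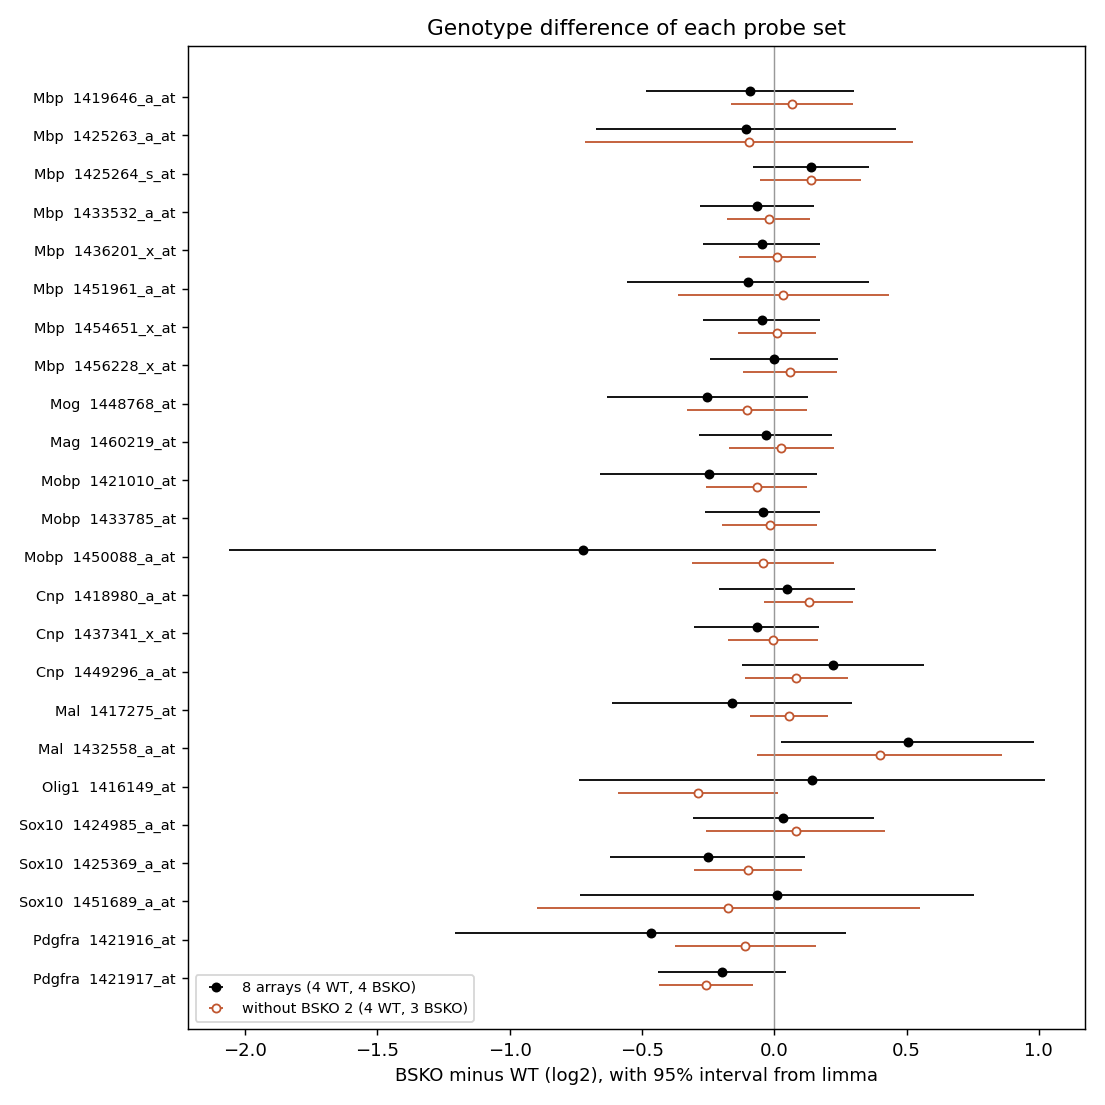
Difference between BSKO and WT (log2) of each of the 24 probe sets with its 95% interval from limma, with 8 arrays (filled) and without BSKO 2 (open). With 8 arrays every interval but that of Mal 1432558_a_at includes 0, without BSKO 2 every interval but that of Pdgfra 1421917_at does, and 23 of the 24 intervals are narrower without that array.

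The intervals say what sizes remained possible. The median SE of the 24 differences was 0.157 with 8 arrays and 0.0848 without BSKO 2, against 0.163 and 0.0982 over all probe sets. Without BSKO 2 the gene-mean intervals of Mbp, Mag, Mobp, Cnp and Mog all lay between -0.32 and 0.22. The other 4 were wider: -0.045 to 0.50 for Mal, -0.59 to 0.011 for Olig1, -0.47 to 0.34 for Sox10 and -0.38 to 0.0096 for Pdgfra. The WT arrays were close to each other: the median WT SD of the 24 was 0.0629, against 0.101 over all probe sets. The BSKO SD was 0.316 with BSKO 2 and 0.144 without it, near the 0.304 and 0.138 of all probe sets.

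The BSKO arrays took different places relative to WT. BSKO 2 lay below every WT array for 17 of the 24 probe sets, where this held for 39.9% of all probe sets. BSKO 4 lay above every WT array for 15 of the 24, against 30.1% of all, and below for 2, against 28.6%. BSKO 3 lay below for 12 (34.4% of all) and above for 7 (32.2% of all). BSKO 1 lay below for 9 (24.7% of all) and above for 4 (29.8% of all). Among the WT arrays the mean of WT 1 and 2 minus that of WT 3 and 4 lay between -0.054 (Mag) and 0.18 (Pdgfra) over the 9 genes. Striatal projection neuron markers, in contrast, had list medians of -1.94 and -1.79 on WT 1 and 2 and 0.0057 and -0.084 on WT 3 and 4.

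Within replicates 1 and 2 the genotype difference was negative for Mobp (-0.70), Pdgfra (-0.59), Mog (-0.40), Mbp (-0.17), Mag (-0.15) and Mal (-0.056) and positive for Olig1 (0.67), Cnp (0.025) and Sox10 (0.014). Within replicates 3 and 4 it was positive for Mal (0.40), Cnp (0.11), Mbp (0.091), Mag (0.081) and Mobp (0.024), and negative for Olig1 (-0.39), Sox10 (-0.15), Mog (-0.10) and Pdgfra (-0.069). Cnp, Mog and Pdgfra kept their sign across these pairs of replicates, and BSKO 2 is in the first pair. With BSKO 1 alone set against WT 1 and 2, Cnp was at -0.019 and did not, while Olig1 was at -0.061 and did, as did Mog (-0.060) and Pdgfra.

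Probe sets of one gene were then set against each other within each array. For the 6 genes with several probe sets, the mean of the other probe sets was subtracted from each of 21 probe sets, with an exact permutation test (two-sided, 70 arrangements) between genotypes. For Mal and Pdgfra, with 2 probe sets each, both contrasts are the same one with the sign turned. The 21 are thus not all distinct, and the adjustment counted these results more than once. The largest shift was in Mal, where 1432558_a_at lay -0.084 ± 0.13 (SD, n = 4) from 1417275_at in WT and 0.58 ± 0.73 in BSKO, a change of 0.66 (exact permutation p = 0.114, adjusted p = 0.800). For Mobp 1450088_a_at the change was -0.58 (exact permutation p = 0.543) with 8 arrays and -0.00069 without BSKO 2. No contrast passed, and none had an unadjusted p under 0.05. The smallest p this design allows is 0.0286, so that a pass after adjustment over 21 was hardly possible and its absence says nothing about the contrasts. Without BSKO 2 the lowest exact permutation p over 35 arrangements was also 0.114 (adjusted p = 0.720). The range between a gene's probe sets on BSKO 2 was 1.54 for Mal, 1.52 for Pdgfra, 1.19 for Sox10, 0.816 for Cnp and 0.651 for Mbp.

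Further genes of myelin and the lineage came from 6 lists by role, in which 80 of 104 genes had a probe set with 1 symbol. None of the 80 passed in either fit (limma on gene means), with 6 at an unadjusted p under 0.05 with 8 arrays and 15 without BSKO 2, where 12.2% and 21.2% of all genes were. With 8 arrays 52 of the 80 had a lower mean in BSKO, with a median of -0.13, against 45.2% of all genes and a median of 0.030. Without BSKO 2 these were 49 of 80 and -0.065, against 46.4% and 0.015. The genotypes did not overlap for 12 of the 80 with 8 arrays and for 18 without BSKO 2, against 13.2% and 20.5% of all genes.

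Of 12 genes of the sheath and its junctions, 11 had a lower mean in BSKO (median -0.17) and 9 without BSKO 2 (median -0.13). Gjb1, a connexin of oligodendrocytes, differed by -0.36 (SE 0.16, adjusted p = 0.407) with BSKO 4 (0.17) above every WT array. Tspan2, a tetraspanin of oligodendrocytes, read 0.067 to 0.094 in WT and -0.041, -0.39, -0.067 and -0.041 on BSKO 1 to 4, with no overlap (-0.22, adjusted p = 0.436). Omg, a myelin glycoprotein gene, differed by -0.18 (adjusted p = 0.462), again with no overlap. Of 13 genes of myelin lipid synthesis, 12 had a lower mean in both fits (medians -0.17 and -0.13). The smallest p values were those of Aspa, which frees acetate in oligodendrocytes (-0.35, SE 0.16), Hmgcs1 (-0.17, adjusted p = 0.426) and Cyp51 (-0.18, adjusted p = 0.483), both of cholesterol synthesis. Hmgcs1 read 0.011 to 0.092 in WT and -0.16 to -0.10 in BSKO.

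Of 20 genes of mature oligodendrocytes, 16 had a lower mean with 8 arrays (median -0.14) and 13 without BSKO 2 (median -0.091). The orphan receptor gene Gpr37 read 0.091, 0.12, 0.24 and 0.099 on WT 1 to 4 and -0.12, -0.37, -0.20 and -0.091 on BSKO 1 to 4. All BSKO arrays were below all WT arrays, and the difference was -0.33 (SE 0.096, adjusted p = 0.254) and -0.27 without BSKO 2 (adjusted p = 0.0752). Il33, a nuclear cytokine gene found in oligodendrocytes and astrocytes, read 0.12, 0.15, 0.058 and 0.076 on WT 1 to 4 and -0.17, -0.33, -0.29 and -0.058 on BSKO 1 to 4. It too separated the genotypes (-0.31, SE 0.093, adjusted p = 0.261, and -0.27 with adjusted p = 0.0938 without BSKO 2). Ndrg1 differed by -0.33 (adjusted p = 0.460), and BSKO 2 read -0.79.

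Of 12 precursor genes, 8 had a lower mean with 8 arrays (median -0.17) and 7 without BSKO 2 (median -0.15). Pcdh15, a protocadherin of precursor cells, read 0.073 to 0.28 in WT and -0.087, -0.82, -0.25 and -0.073 on BSKO 1 to 4, a difference of -0.50 without overlap (SE 0.17, adjusted p = 0.319, and -0.33 with adjusted p = 0.0788 without BSKO 2). Ptprz1, a receptor phosphatase that astrocytes also carry, differed by -0.23 (adjusted p = 0.385). The proteoglycan gene Vcan differed the other way, by 0.21 (adjusted p = 0.445), also without overlap. Among 12 lineage transcription factors 9 had a higher mean (median 0.068), and 5 without BSKO 2 (median -0.020). Id4, an inhibitor of helix-loop-helix factors, differed by 0.32 (SE 0.10, adjusted p = 0.305) without overlap, Carm1 by 0.17 and Hes5 by 0.62, with BSKO 2 at 1.49. Of 14 growth factor signalling genes 10 had a higher mean in both fits (medians 0.14 and 0.027). Fgfr2 differed by -0.59 and Erbb2 by 0.57, with BSKO 2 at -1.47 and 1.65, and Rnd2 by 0.15. Of the measured genes, Olig2 and Nkx2-2 are in both the precursor and the factor list, and Hapln2 in both sheath and mature lists. Some are also in marker lists of other cells: Pmp22 of the sheath list is a Schwann cell marker there. Pdgfrb of the growth factor list and Cspg4 of the precursor list are in the pericyte list.

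**Figure D4:**
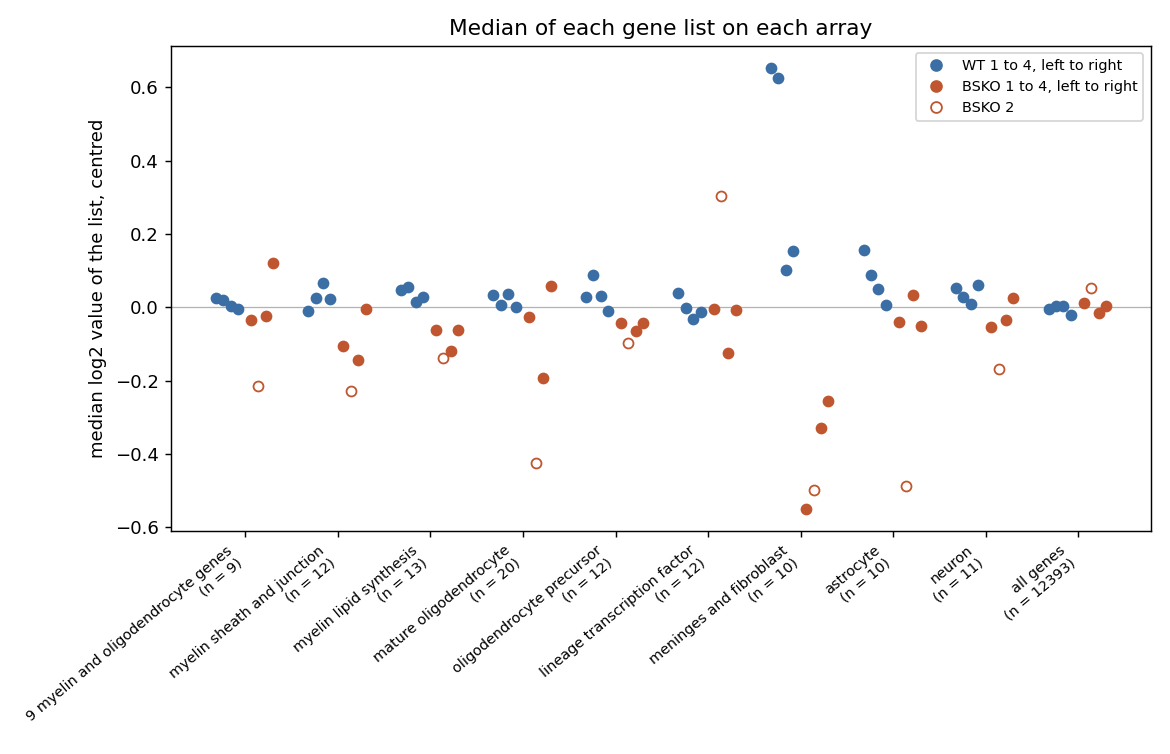
Median centred log2 value of each gene list on each array (WT 1 to 4, then BSKO 1 to 4, BSKO 2 open), with the number of measured genes under each name and all genes at the right. The 9 myelin and oligodendrocyte genes lie near 0 except on BSKO 2 (-0.22) and BSKO 4 (0.12), and the meningeal, lipid synthesis and precursor lists have every BSKO array below every WT array.

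Markers of other cell types were listed beside these. Neuronal genes had a lower mean for 10 of 11 with 8 arrays (median -0.19) and for 6 of 11 without BSKO 2 (median -0.047). Astrocyte genes had a lower mean for 9 of 10 (median -0.17) and for 7 of 10 (median -0.079), with Gfap at -0.63 (adjusted p = 0.160) and Aldoc at -0.39. Medians for microglia (10 genes), endothelium (9), Schwann cells (4), hindbrain and spinal cord (4) and ribosomal proteins (7) were -0.081, -0.086, 0.17, -0.082 and 0.015 with 8 arrays. Without BSKO 2 they were -0.0097, -0.076, 0.057, -0.13 and 0.048. The 7 measured striatal markers were all higher in BSKO (median 1.61). With 8 arrays the smallest p values of these lists (differences in brackets) were those of Nefl and Nefh, Aif1 (0.37) and Itgam (-0.093), Pecam1 (-0.46) and Tek (-0.13), Ncmap (0.37) and Pmp22 (-0.25), Hoxc8 (0.16) and Hoxa5 (-0.16), Rps6 (-0.11) and Rps18 (0.089), and Drd2 (1.79) and Rgs9 (1.54). None of these lists had a gene that passed in either fit (limma), while 7 of 7 striatal and 2 of 10 astrocyte genes had an unadjusted p under 0.05 with 8 arrays, against 12.2% of all genes.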

How the data were processed

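Whole-brain RNA of 8 mice was measured on Affymetrix Mouse430A_2 arrays. The deposited table holds log2 values that the authors made with RMA, per the submitters' processing notes, with no version given in the sources used here. In these values 22689 of 22690 probe sets had a median within 1e-05 of 0, so they were centred, a step that no label records. After removal of 64 control probe sets, 22626 were tested without a filter, since centred values carry no brightness. Symbols were those of the platform annotation, brought up to date through Entrez numbers and RefSeq (GRCm38.p6): 20380 probe sets had 1 symbol, 691 several and 1555 none.

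The genotype fits used limma 3.58.1 under R 4.3.3 (two-sided, no covariate, Benjamini-Hochberg over all probe sets or all genes, threshold 0.05), on 8 arrays and without BSKO 2. The value of a gene is the mean of its probe sets. Differences are BSKO minus WT. Figures were drawn with matplotlib 3.10.9. The scripts were tested on simulated data.

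The genes and lists were chosen with earlier results of these data known. Named were all probe sets of the 9 genes, called list members or else the 3 with the smallest p (markers: 2), and the 5 genes closest in pattern. Alternatives were quantile normalization, array centring, leaving out _s_at and _x_at probe sets, array weights, trend with robust variances, a replicate block, a term for replicates 1 and 2 against 3 and 4, a minimum fold of 1.2, a threshold of 0.10, each array left out in turn and the median of probe sets.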

Additional observations from a re-analysis of the deposited data

Results flagged for a closer look

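Among 66 groups of 4 arrays examined (9 gene means and 24 probe sets in each genotype), 3 held an array whose gap to its nearest neighbour, as a share of the group's range, passed Dixon's critical value for 95%, where chance gives about 1 in 20. Mobp probe set 1450088_a_at read -2.69 on BSKO 2, against -0.15 to 0.30 on the other BSKO arrays. Mal probe set 1417275_at read -0.81 on BSKO 2, against -0.017 to 0.084. Sox10 probe set 1451689_a_at read -1.16 on BSKO 3, against 0.23 to 0.50. BSKO 2 is also the array on which the centred 5′ minus 3′ value of beta-actin was -2.44, and the part of RNA quality in its values was not tested. No gene mean was marked in this way.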

How the results depend on the processing

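The count called among the 24 probe sets or the 9 genes was 0 under 64 of 66 alternatives. It was also 0 for the contrasts of probe sets within a gene, where the design hardly allows a call, so this says nothing about stability. The exceptions were the fits with array weights, where 1 probe set, Pdgfra 1421917_at, was called with 8 arrays and 1 without BSKO 2, where 11.6% and 13.3% of all probe sets were called. In the first of these BSKO 2 had a weight of 0.0456 and BSKO 4 one of 3.69. Over 144 alternatives for the 9 gene means with 8 arrays no gene was called (lowest adjusted p = 0.129). Of these alternatives 132 kept the direction and 12, in 5 genes, turned it, each from a difference whose interval included 0. Trend with robust variances, the replicate block and the term for replicates 1 and 2 against 3 and 4 left each difference unchanged. They could not turn a direction. Nor could the median of probe sets in genes with 1 or 2, or leaving out _s_at and _x_at probe sets in genes without them. The 132 is therefore no measure of how stable the directions were. With array weights Mbp turned to 0.035, Mag to 0.098, Mobp to 0.039, Olig1 to -0.21 and Sox10 to 0.11. Without BSKO 2 none of the 9 genes was called under any alternative either, and the lowest adjusted p was 0.0690, with BSKO 1 left out too. Quantile normalization turned Olig1 to -0.14, and the median of probe sets turned Sox10 to 0.0077. Leaving out 1 array at a time gave -0.10 to 0.027 for Mag, -0.096 to 0.026 for Mbp, -0.29 to 0.40 for Olig1 and -0.17 to 0.096 for Sox10. Without BSKO 2 Mbp was 0.026, Mag 0.027 and Olig1 -0.29, without BSKO 1 Mag was 0.0016 and without BSKO 3 Sox10 was 0.096. The cause of the other turns was not tested. With the replicate number as a block 0 of the 24 probe sets were called with 8 arrays (lowest adjusted p = 0.534) and 0 without BSKO 2 (0.280), and likewise 0 of the 9 genes (0.501 and 0.350). Same-numbered arrays correlated by 0.056 to 0.14 in their deviations from the group means, and 2 of 4 BSKO arrays correlated best with the WT array of their number, so the numbers are not taken as pairs. WT and BSKO arrays did correlate positively within replicates 1 and 2 and within 3 and 4 (0.031 to 0.17). All other such correlations were negative (-0.15 to -0.037). With a term for these sets, 84 of all 22626 probe sets were called in place of 7, and 744 in place of 369 without BSKO 2. None of the 24 was among them. The number of arrays limits what could be detected.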

Other observations

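Neurofilament genes, whose proteins fill the large axons that myelin wraps, were read from the neuronal list after their values were seen. Nefl read 0.14, 0.19, 0.069 and 0.11 on WT 1 to 4 and -0.18, -0.96, -0.51 and -0.069 on BSKO 1 to 4, so that all BSKO arrays lay below all WT arrays (difference -0.56, limma adjusted p = 0.311, and -0.38 with adjusted p = 0.107 without BSKO 2). Nefh differed by -0.43 and Nefm by -0.22, with BSKO 3 the lowest array for both (-0.70 and -0.45). Unlike Nefl, both overlapped between the genotypes. Nefh read 0.53 and 0.44 on WT 1 and 2 and -0.013 and 0.013 on WT 3 and 4. On BSKO 1, 2 and 4 it read -0.029, -0.017 and 0.015. Nefm read 0.025 and 0.027 on BSKO 2 and BSKO 4, within its WT range, and -0.39 on BSKO 1.

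Olig2, the close relative of Olig1, was picked after its values were seen. It read 0.30, 0.11, -0.050 and 0.050 on WT 1 to 4 and -0.073, 1.06, -0.42 and -0.054 on BSKO 1 to 4. As for Olig1, BSKO 2 was the highest array and BSKO 3 the lowest. The Olig2 difference was 0.027 with 8 arrays and -0.28 without BSKO 2 (adjusted p = 0.219).

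Outside the lists, 12228 genes were ranked by Pearson correlation over the 7 arrays without BSKO 2, as a description. Closest to the mean of Mbp, Mog, Mag, Mobp, Cnp and Mal were Shroom1 (0.967), Mpi (0.958), Myh11 (0.953), Clcf1 (0.953) and Hspb2 (0.952). With BSKO 2 included Mpi stood at 0.983 and Clcf1 at -0.795. Closest to Pdgfra were Mmp19 (0.99), Lamc3 (0.969), Cstf2t (0.965), Trpc5 (0.964) and Usp25 (0.954), and with BSKO 2 Mmp19 stood at 0.996 and Lamc3 at -0.181. These are the highest of many correlations over few arrays that share a genotype, and no test was made of them.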
